A study of Antheraea pernyi with 6 samples.

Results

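The genes described here are 7 of the 16458 genes in a table of antennal transcripts from Antheraea pernyi, the Chinese oak silkmoth. They are 3 gene models named for doublesex, 1 model named for fruitless, 1 vitellogenin gene and 2 microvitellogenin genes, each chosen by its identifier. They were singled out for how their levels lay in libraries labelled female and male. Those levels are therefore given as a description, with no test. Antennae, the main olfactory organ of the moth, gave 6 mRNA libraries, 3 labelled female and 3 labelled male. The sources used here give no strain, age or rearing and no number of animals per library. The spread between libraries may therefore be technical in part.

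Doublesex encodes a transcription factor with a DM domain, a zinc-binding DNA-binding domain. It stands at the end of the insect sex determination cascade, where its transcript is spliced into a female and a male form. In the silkworm Bombyx mori the female form carries exons that the male form skips, and the Masculinizer protein is needed for the male form. Fruitless is a BTB zinc finger transcription factor whose sex-specific splicing in Drosophila neurons is needed for male courtship. Vitellogenin is the main yolk precursor of insects, made in the fat body of egg-producing females, carried in the hemolymph and taken up by growing oocytes. Microvitellogenin is a small yolk protein first described in the tobacco hornworm Manduca sexta, where it is female-specific, and it is related to the 30K lipoproteins of moth hemolymph.

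Levels are deposited FPKM values, fragments scaled by gene length and library size. The values kept the steps of whole reads, so reads per gene and library were recovered from them. Library totals lay between 10851262 and 11180175 reads for the label female and between 9392242 and 9606755 for the label male. The tissue label was checked on 7 antennal markers, all detected in every library. Of these 4 were called higher under the label female and 2 under the label male, beside 9.03% and 27.8% over all genes. Pheromone-binding protein 1 (GWHGABGR012196), which carries pheromone to receptors, stood at 92516 ± 2089 FPKM (SD, n = 3) under the label female and at 1273 ± 90.6 under the label male. Pheromone-binding protein 3 (GWHGABGR012195) stood at 11729 ± 248 against 1082 ± 28 FPKM. The odorant receptor coreceptor (GWHGABGR013501) stood at 465 ± 5.89 against 176 ± 1.58 FPKM. General odorant-binding proteins, which also carry odorants, lay the other way. General odorant-binding protein 1 (GWHGABGR012186) stood at 5239 ± 133 against 10391 ± 124 FPKM, and general odorant-binding protein 2 (GWHGABGR012194) at 11568 ± 297 against 17546 ± 789 FPKM. A sensory neuron membrane protein 2 gene (GWHGABGR000255) stood at 0.654 ± 0.25 against 0.647 ± 0.34 FPKM and did not pass the test. Another gene of that name (GWHGABGR005182) stood at 3042 ± 5.49 against 2427 ± 41.4 FPKM and was called higher under the label female. Pheromone-binding proteins are often male-biased in moths. Reads of vitellogenin and of the female-named doublesex model, both chosen on this contrast, lay under the label male alone. Other genes described below lay both ways. Masculinizer had the higher mean under the label male, with libraries that overlapped between labels. Vitellogenin receptor had the higher mean under the label female, without passing the test. Chorion class proteins were called in both directions. A chorion peroxidase gene and every other microvitellogenin gene called were higher under the label male. Another chorion peroxidase gene, too low for the test, had the higher mean under the label female. Exchanged labels and a difference between the sexes cannot be told apart, and every direction below is one between labels. In whole antennae, fewer cells of a type and less RNA per cell cannot be told apart either.

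Doublesex was near the lower limit of detection. The 3 models carry the close identifiers GWHGABGR017603, GWHGABGR017605 and GWHGABGR017606. The number between them, GWHGABGR017604, has a hypothetical protein as best hit and the symbol RTase. The recovered lengths were 273, 327 and about 680 bases. The best hits of GWHGABGR017603 and GWHGABGR017606 are male-specific doublesex isoforms of the silkmoths Antheraea mylitta and Antheraea assamensis, and that of GWHGABGR017605 is the female-specific isoform F2 of Antheraea mylitta. The models may be parts of 1 locus, and exons shared by both forms need not lie in the model whose name they would fit.

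The female-named model GWHGABGR017605 had 0, 0 and 0 reads in replicates 1, 2 and 3 labelled female and 5, 3 and 8 reads in those labelled male. Its levels were 1.63, 0.955 and 2.59 FPKM in the male-labelled libraries. Every male-labelled library thus held reads and no female-labelled one did. The 0 reads over the female-labelled libraries allow up to 0.277 FPKM, the level of 3 reads over that set. With the 16 male-labelled reads taken as exact, the male-labelled libraries were at least 6.2-fold higher than that floor. With their counting error the exact 95% lower limit of the ratio was 4.48. Intervals and floors here cover counting error only and describe the chosen genes; they are not tests of the labels.

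The male-named model GWHGABGR017603 had 0, 3 and 0 reads under the label female and 3, 3 and 2 under the label male. The levels were 0, 0.983 and 0 FPKM against 1.17, 1.14 and 0.775 FPKM. The groups overlapped, because female replicate 2 lay above male replicate 3, and without female replicate 2 no read was left under the label female. The ratio of male-labelled to female-labelled reads, corrected for library totals, was 3.1, with an exact 95% interval from 0.744 to 18.1.

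The other male-named model, GWHGABGR017606, had 0, 2 and 4 reads under the label female and 3, 6 and 4 under the label male. The levels were 0, 0.263 and 0.541 FPKM against 0.469, 0.917 and 0.622 FPKM. Here too the groups overlapped, with female replicate 3 above male replicate 1. The ratio was 2.52, with an exact 95% interval from 0.893 to 8.08. At 680 bases, 3 reads in male replicate 1 would give 0.4697 FPKM, slightly above the deposited 0.4690. The recovered length is thus slightly short, and that it does not divide by 3 says nothing about the reads.

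Summed over both male-named models there were 9 reads under the label female and 21 under the label male, a ratio of 2.71 after correction for library totals. Over all 3 models there were 9 and 37 reads. The female-named model took 0 of 9 doublesex reads under the label female, which allows a share of up to 33.3%. It took 16 of 37 under the label male, a share of 43.2% (exact 95% interval 27.1 to 60.5%). By library that share was 45.5%, 25% and 57.1% in male replicates 1, 2 and 3. Leaving out 1 male-labelled library at a time gave shares from 34.8 to 52%. If the reads of GWHGABGR017606 are multiplied by 3, the share under the label male is 25.4% (16 of 63). The limit under the label female is then 14.3% (0 of 21). The deposited values give no reason for that factor, so these 2 values are arithmetic only. Male-named models thus held reads under both labels, and the female-named model under the label male alone. In female replicate 1 no doublesex read was found, although its total of 11030594 reads was above that of every male-labelled library.

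**Figure D1:**
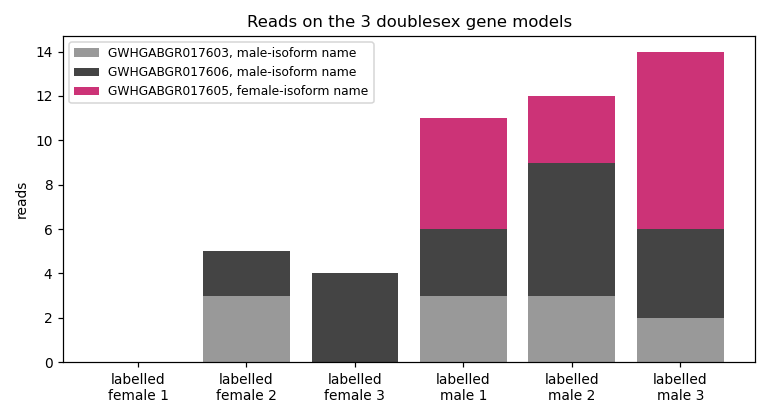
Reads on the 3 doublesex gene models (y axis) in each of the 6 libraries (x axis), stacked by model, with lengths taken as the shortest that give whole reads. The female-named model, GWHGABGR017605, has 5, 3 and 8 reads under the label male and 0 under the label female, and female replicate 1 has no read on any model.

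Fruitless (GWHGABGR002049, best hit sex determination protein fruitless isoform X1 of Spodoptera litura) was clearly detected, and its libraries overlapped between labels. It stood at 4.99, 7.03 and 6.88 FPKM in replicates 1, 2 and 3 labelled female. In those labelled male it stood at 5.72, 5.91 and 5.73 FPKM. Female replicate 1 was the lowest of all 6 libraries and the other two female-labelled libraries were the highest. The means were 6.3 ± 1.14 FPKM (SD, n = 3) under the label female and 5.79 ± 0.107 under the label male. The difference in log2(FPKM + 1), male-labelled minus female-labelled, was -0.09 (SE 0.16). Without female replicate 1 it was -0.23.

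In reads, fruitless had 126, 180 and 171 under the label female and 123, 130 and 124 under the label male. The chi-square per degree of freedom against equal rates within a label was 5.2 for the female-labelled libraries and 0.0431 for the male-labelled ones, where read counting alone gives about 1. The recovered length of 2289 bases covers 1 model, and the table does not separate sex-specific fruitless exons, so splicing of fruitless could not be compared.

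Vitellogenin (GWHGABGR020830, best hit vitellogenin of Antheraea pernyi itself) had the lowest level of the 7 genes. It had 0 reads in each female-labelled library and 8, 14 and 7 reads in male replicates 1, 2 and 3. The levels under the label male were 0.16, 0.274 and 0.139 FPKM, over a recovered length of 5322 bases. All 29 reads lay under the label male, and each male-labelled library held some. The 0 reads under the label female allow up to 0.017 FPKM, the level of 3 reads over the set. With the 29 male-labelled reads taken as exact, the male-labelled libraries were at least 11.2-fold higher than that floor. With their counting error the exact 95% lower limit of the ratio was 8.57. Of all genes, 13.7% had a mean FPKM as low as that of vitellogenin or lower. A further gene with the name vitellogenin-2-like (GWHGABGR013035) had 1 read, under the label male.

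Microvitellogenin GWHGABGR016973 (symbol LP3, best hit microvitellogenin of Antheraea pernyi) lay mostly under the label male. It had 1, 0 and 0 reads in replicates 1, 2 and 3 labelled female and 17, 16 and 23 in those labelled male. The levels were 0.112, 0 and 0 FPKM against 2.23, 2.05 and 2.99 FPKM. The groups did not overlap, and the single read under the label female came from replicate 1. Of its 57 reads, 98.2% were male-labelled. The ratio corrected for library totals was 65.1, with an exact 95% interval from 11.2 to 2616. The log2(FPKM + 1) difference was 1.71 (SE 0.21), a scale on which the change of so low a gene is understated. With a pseudocount of 0.1 FPKM it was 4.28.

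Microvitellogenin-like GWHGABGR016997 (symbol LP4, best hit from Manduca sexta) lay the other way and was the most abundant of the 7 genes. It stood at 37.9, 35.1 and 28.5 FPKM under the label female and at 28.3, 24.6 and 22.4 FPKM under the label male. The groups did not overlap, but female replicate 3 lay close above male replicate 1. The reads were 332, 312 and 246 against 211, 188 and 168. The female-labelled libraries were 1.35-fold higher in reads corrected for library totals (exact 95% interval 1.21 to 1.5, counting error only). The chi-square per degree of freedom within a label was 5.91 for the female-labelled libraries and 2.64 for the male-labelled ones, so that interval is narrower than the spread between libraries would give. The log2(FPKM + 1) difference was -0.41 (SE 0.13), and -0.66 after median-of-ratios rescaling, which sets the typical gene equal between libraries.

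**Figure D2:**
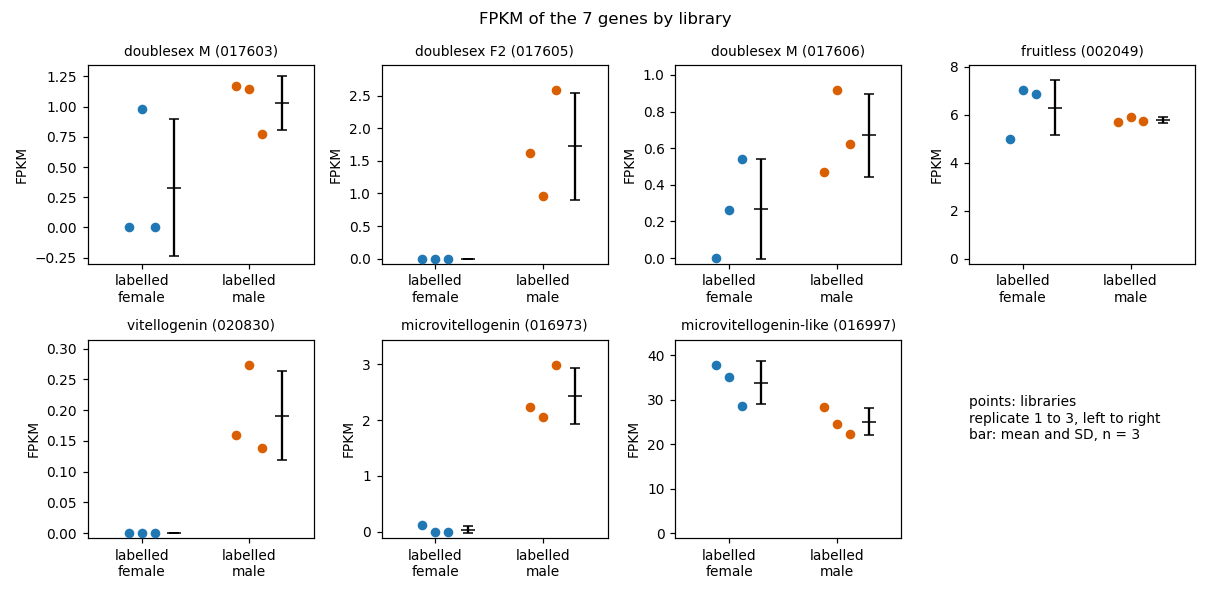
FPKM (y axes, each with its own scale) of the 7 genes in the 3 libraries labelled female (blue) and the 3 labelled male (orange), with the mean and SD (n = 3) beside them. Doublesex GWHGABGR017605 and vitellogenin are at 0 in every female-labelled library, microvitellogenin GWHGABGR016973 is near 0 there, and fruitless overlaps between labels.

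Ordered by mean FPKM over all libraries, microvitellogenin-like GWHGABGR016997 (29.5) stood first and fruitless (6.05) next, and neither overlapped its neighbour. Then came microvitellogenin GWHGABGR016973 (1.23), the female-named doublesex model (0.862) and the male-named models GWHGABGR017603 (0.679) and GWHGABGR017606 (0.469). Within the male-labelled libraries each of these neighbours overlapped the next in FPKM. Vitellogenin (0.0955) stood last, and none of its male-labelled libraries reached the lowest male-labelled library of GWHGABGR017606. The median gene of the table had a mean of 2.75 FPKM, so 5 of the 7 genes lay below it.

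By their means 5 of the 7 genes were higher under the label male and 2, fruitless and GWHGABGR016997, under the label female. In 4 of the 7 genes the libraries did not overlap between labels, 3 of them with the male-labelled libraries above. Among all tested genes 50.1% did not overlap in either direction. Over all genes of the table, 28.8% had every male-labelled library above every female-labelled one and 9.32% the reverse. Among genes with 10 or more reads, 0.456% (59 of 12942) had no read under the label female, as did GWHGABGR017605 and vitellogenin. The share with no read under the label male was 0.185% (24 of 12942). These shares are background for genes that were chosen on this contrast, and nothing is read from them.

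A mean of at least 0.5 FPKM was needed for the test across all genes, made with limma on log2(FPKM + 1) with adjusted p under 0.05. Of the 7 genes 5 passed that filter, while vitellogenin and GWHGABGR017606 did not, and GWHGABGR017605 and GWHGABGR016973 passed it through their male-labelled libraries. Of 11590 genes tested, 27.8% were called higher under the label male and 9.03% under the label female. The median gene lay at 0.23, and at 0.02 once rescaled by median of ratios. That rescaling called 1655 and 2036 genes in place of 3227 and 1047. Changes of other genes below are to be read against that shift.

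Microvitellogenin is a family of 42 genes in this table, and the other 40 were taken by name. Identifiers of 41 of the 42 genes fall within 90 consecutive numbers, which the table does not tie to positions in the genome. Summed over the family, FPKM lay between 624 and 647 in female-labelled libraries and between 800.0 and 848 in male-labelled ones. The genes GWHGABGR017014 and GWHGABGR017011 made up 69.5% of it, GWHGABGR016997 made up 4.02% and GWHGABGR016973 0.168%. Reads of near-identical copies could have been split between genes by the authors' counting.

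Of the 40 other microvitellogenin genes, 23 were tested. Of these 12 (52.2%) were called higher under the label male and none under the label female, beside 27.8% and 9.03% over all genes. After median-of-ratios rescaling 7 were called, all higher under the label male. Their median difference was 0.42 (0.24 after that rescaling), beside 0.23 for all genes. The microvitellogenin gene GWHGABGR017019 stood at 20.7 ± 0.314 FPKM (SD, n = 3) under the label female and at 46.4 ± 3.01 under the label male (log2 difference 1.12, SE 0.08, limma adjusted p = 1.22e-05). GWHGABGR016989 stood at 7.78 ± 1.31 against 19.3 ± 1.36 FPKM (log2 difference 1.22, limma adjusted p = 0.000237). GWHGABGR016971, 2 identifiers before GWHGABGR016973, stood at 29.7 ± 2 against 55.4 ± 4.36 FPKM (log2 difference 0.88, limma adjusted p = 9.53e-05). The calls of these genes held in every setting run. The most abundant pair moved little, at 256 ± 12.1 against 303 ± 10.3 FPKM for GWHGABGR017014 and 204 ± 11.4 against 254 ± 8.47 FPKM for GWHGABGR017011, and both lost their call once libraries were rescaled by median of ratios.

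Of the whole family, GWHGABGR016973 was the 1 gene with 10 or more reads under the label male and at most 1 under the label female. It was alone at these limits only. Another low gene, GWHGABGR016937, had 3 reads under the label female and 20 under the label male. GWHGABGR016956 had 2 and 12 reads, most of the latter in male replicate 2. The neighbour of GWHGABGR016997 by identifier, GWHGABGR016996, has the same name and lay the same way, at 7.94 ± 1.69 against 5.79 ± 1.33 FPKM, without passing the test (log2 difference -0.40, limma adjusted p = 0.174). Among tested genes of the family 20 lay higher under the label male and 5 under the label female, and differences ran from -0.41 for GWHGABGR016997 to 1.71 for GWHGABGR016973. The 2 genes described here are thus both ends of the family's range, which their choice fixes.

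**Figure D3:**
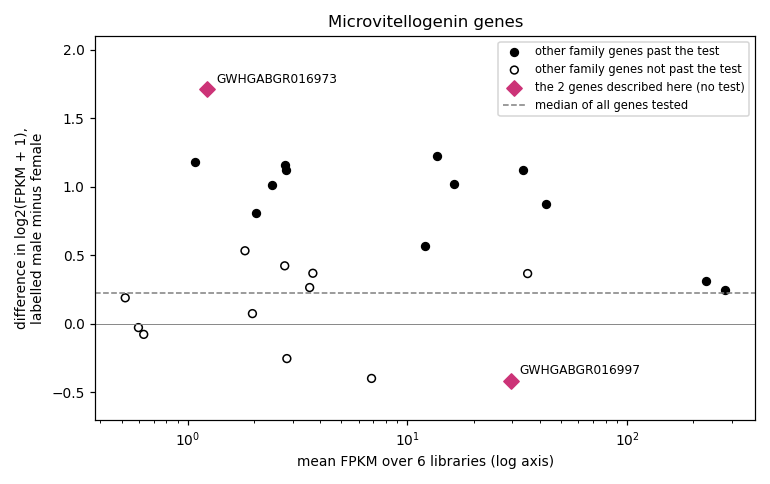
Difference in log2(FPKM + 1), labelled male minus labelled female (y axis), against mean FPKM over 6 libraries (x axis, log scale) for the 25 microvitellogenin genes with a mean of at least 0.5 FPKM. Diamonds are the 2 genes described here, filled circles the 12 other genes past the test, open circles those not past it, and the dashed line the median of all genes tested (0.23).

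The list of yolk, egg shell and yolk uptake genes holds 62 genes besides the 7, of which 31 were tested. Of these 15 (48.4%) were called higher under the label male and 1 (3.23%) under the label female, beside 27.8% and 9.03% over all genes. After median-of-ratios rescaling the counts were 9 and 1. The list's median was 0.40, beside 0.23 for all genes, and 12 of the 15 genes are microvitellogenins. Vitellogenin receptor (GWHGABGR018313), the receptor through which oocytes take up vitellogenin, lay opposite to vitellogenin. It stood at 1.34, 1.6 and 1.24 FPKM under the label female and at 0.702, 0.981 and 0.199 FPKM under the label male. The groups did not overlap, but the difference of -0.59 did not pass (SE 0.24, limma adjusted p = 0.0912).

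Chorion proteins build the egg shell. Of 15 chorion class proteins 4 were tested. Of these 1 (25%) was called higher under the label male and 1 (25%) under the label female, beside 27.8% and 9.03% over all genes. The whole class had 129 reads under the label female and 116 under the label male. Chorion class B protein PC10 (GWHGABGR002324) had 10 reads under the label female and 47 under the label male (0.591 ± 0.577 against 3.21 ± 1.51 FPKM, limma adjusted p = 0.0108). The other genes with that name were too low for the test and lay the other way. GWHGABGR002314 had 3 against 0 reads, GWHGABGR002323 had 5 against 2 and GWHGABGR002326 had 4 against 0. Chorion class B protein PC401 (GWHGABGR002264) had 26 reads under the label female and 4 under the label male (1.52 ± 0.559 against 0.27 ± 0.234 FPKM, limma adjusted p = 0.0165), a call lost without female replicate 3 and without male replicate 3. A gene named chorion peroxidase (GWHGABGR002102), an enzyme that hardens the egg shell in mosquitoes, had 17 against 304 reads (0.123 ± 0.112 against 2.53 ± 0.663 FPKM, log2 difference 1.64, limma adjusted p = 0.000657). A chorion peroxidase-like gene (GWHGABGR007668), too low for the test, lay the other way with 29 against 13 reads (0.257 ± 0.192 against 0.135 ± 0.127 FPKM). Vasa (GWHGABGR001136), a germ line RNA helicase, did not pass, at 7 ± 0.967 against 9.56 ± 1 FPKM.

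Since vitellogenin and the 30K proteins are made in the fat body, markers of that tissue were set beside them. Of 25 other fat body and hemolymph proteins, 16 were tested. Of these 6 (37.5%) were called higher under the label male and 3 (18.8%) under the label female, beside 27.8% and 9.03% over all genes. Once rescaled by median of ratios the counts were 5 and 3. The list's median was 0.29, beside 0.23 for all genes. A moderately methionine rich hexamerin (GWHGABGR009147), a storage protein, stood at 0.836 ± 0.412 FPKM (SD, n = 3) under the label female and 5.01 ± 1.2 under the label male (log2 difference 1.71, limma adjusted p = 0.000809). The very methionine rich hexamerins did not pass. GWHGABGR002992 stood at 1.48 ± 0.255 against 1.57 ± 0.105 FPKM and GWHGABGR002993 at 1.07 ± 0.421 against 1.59 ± 0.275 FPKM. A hemolymph protein gene (GWHGABGR001810) stood at 2.01 ± 0.715 against 5.9 ± 1.4 FPKM (log2 difference 1.21, limma adjusted p = 0.00529). Apolipophorin-II/I (GWHGABGR021003), the scaffold of the lipid carrier lipophorin, had 85 against 271 reads and stood at 0.485 ± 0.201 against 1.8 ± 0.594 FPKM. Its log2 difference was 0.90 (limma adjusted p = 0.0166), and the call was lost without female replicate 1, without male replicate 2 and under quantile normalization. An arylphorin gene (GWHGABGR009143) did not pass, at 1.0 ± 0.175 against 1.01 ± 0.203 FPKM. Arylphorin subunit alpha-like (GWHGABGR009144) stood at 57.9 ± 2.92 against 89.7 ± 5.67 FPKM and was called higher under the label male. It is named here after its values were seen. Apolipophorin-III (GWHGABGR013340) went the other way, at 543 ± 17.7 against 410.1 ± 7.39 FPKM, as did the 2 abundant ferritin genes, GWHGABGR020004 and GWHGABGR020005.

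Over the defining fat body markers (13 hexamerins, arylphorins, apolipophorins and 30 kDa lipoproteins), 3 of 8 tested genes were called higher under the label male and 1, apolipophorin-III, under the label female. The shares over all genes were 27.8% and 9.03%. Of the 13 genes none was at 0 in all libraries of a label. Their summed level lay between 587 and 619 FPKM in female-labelled libraries and between 505 and 528 in male-labelled ones. Most of that sum was apolipophorin-III. Without it the other 12 markers summed to between 62.3 and 66.6 FPKM under the label female and between 97.6 and 109.9 under the label male, an alternative chosen after seeing the data. Most of that remaining sum was in turn arylphorin subunit alpha-like (GWHGABGR009144), at 57.9 ± 2.92 against 89.7 ± 5.67 FPKM. A 24 kDa female-specific fat body protein (GWHGABGR015094) had 0 reads under the label female and 3 under the label male. Over 17 ovary and egg markers, sums lay between 14.6 and 21.2 FPKM under the label female. Under the label male they lay between 16.8 and 23.6 FPKM. Of these genes 2 were at 0 under the label female and 7 under the label male, each with at most 4 reads in all. Of all 16458 genes 1235 were at 0 under the label female and 979 under the label male. Over 11 testis markers sums lay between 60.6 and 109.9 FPKM and between 70.3 and 86.3 FPKM. With limma none of the 4 tested testis markers passed, and none had an unadjusted p under 0.05. Of 5 hemocyte markers 2 were tested, and hemocytin (GWHGABGR010485) was higher under the label male (9.53 ± 0.1 against 16 ± 1.05 FPKM, limma adjusted p = 0.00135). Their sums lay between 11 and 13.1 FPKM under the label female and between 17.4 and 20.6 under the label male. The part of these tissues in the yolk protein reads was not tested.

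**Figure D4:**
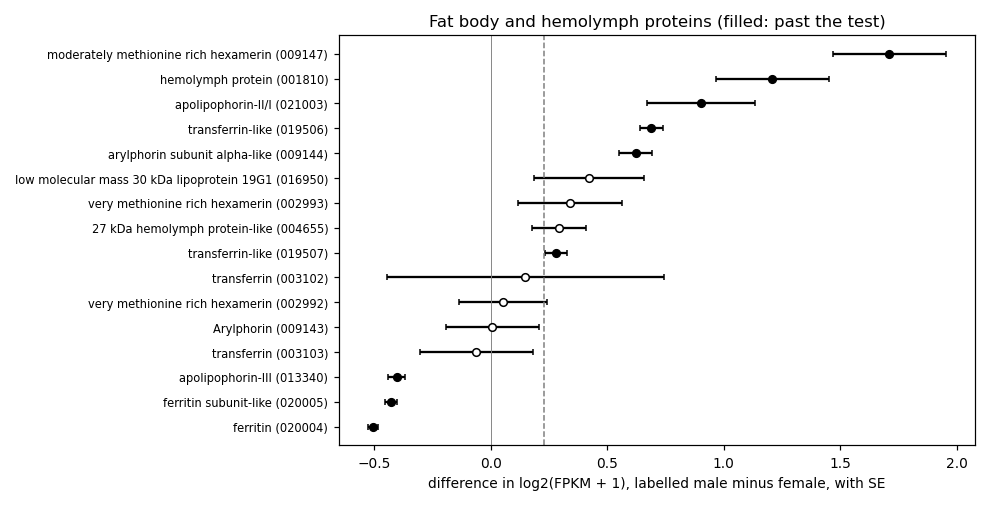
Difference in log2(FPKM + 1) with its SE, labelled male minus labelled female (x axis), for the 16 tested fat body and hemolymph proteins (y axis, with the end of each identifier). Filled points passed the test, 6 to the right and 3 to the left of 0, and the dashed line is the median of all genes tested (0.23).

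Most listed genes of the sex determination cascade, some of which act beside doublesex rather than before it, did not pass the test. Of 18 such genes 16 were tested, 3 were called higher under the label male and 1 under the label female, beside 27.8% and 9.03% over all genes. After median-of-ratios rescaling the counts were 0 and 3, and the median moved from 0.15 to -0.09. Masculinizer (GWHGABGR000330), the gene whose product is needed for male doublesex splicing in Bombyx mori, stood at 5.38, 2.04 and 1.96 FPKM under the label female and at 5.35, 6.02 and 7.25 FPKM under the label male. Female replicate 1 lay above male replicate 1, so the groups overlapped. Its difference of 0.89 (SE 0.30, limma adjusted p = 0.0477) passed in 3 of 13 settings, and not after median-of-ratios rescaling (adjusted p = 0.122), so the call is not stable. Imp, listed as insulin-like growth factor 2 mRNA-binding protein 1 (GWHGABGR000073), promotes male doublesex splicing in Bombyx mori. It stood at 3.72 ± 0.74 against 6.32 ± 0.553 FPKM (log2 difference 0.64, limma adjusted p = 0.0206) and was called in 7 of 13 settings. The call was lost after that rescaling (adjusted p by limma 0.0997), under quantile normalization and without female replicate 2, female replicate 3, male replicate 1 or male replicate 2.

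Extra-macrochaetae (GWHGABGR013724), an inhibitor of helix-loop-helix factors, stood at 173 ± 7.8 against 219 ± 8.29 FPKM (log2 difference 0.34, limma adjusted p = 0.00118) and lost its call after the same rescaling. Groucho-like (GWHGABGR016122), a corepressor that takes part in X chromosome counting in Drosophila, stood at 109 ± 5.36 against 85.8 ± 6.67 FPKM. Its difference of -0.34 (limma adjusted p = 0.00611) held in all 13 settings. Transformer-2 (GWHGABGR011056), a splicing factor acting on doublesex in Drosophila, stood at 30.3 ± 3.39 against 34 ± 1.6 FPKM and did not pass (adjusted p by limma 0.218). Sex-lethal (GWHGABGR013458), the master switch in Drosophila, stood at 8.16 ± 2.44 against 12.1 ± 2.23 FPKM and did not pass either (adjusted p by limma 0.0882). The piwi-like protein Siwi (GWHGABGR012851), which in Bombyx mori acts with the feminizing piRNA, stood at 15.3 ± 0.742 against 15.6 ± 0.74 FPKM. Virilizer (GWHGABGR018074) stood at 17 ± 0.842 against 15.8 ± 0.0505 FPKM. Intersex, a cofactor of doublesex in Drosophila listed as Mediator subunit 29 (GWHGABGR012731), stood at 34.9 ± 3.97 against 38.1 ± 8.36 FPKM. None of these 3 genes passed on the deposited scale. Virilizer passed as higher under the label female once rescaled (adjusted p by limma 0.0233).

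**Figure D5:**
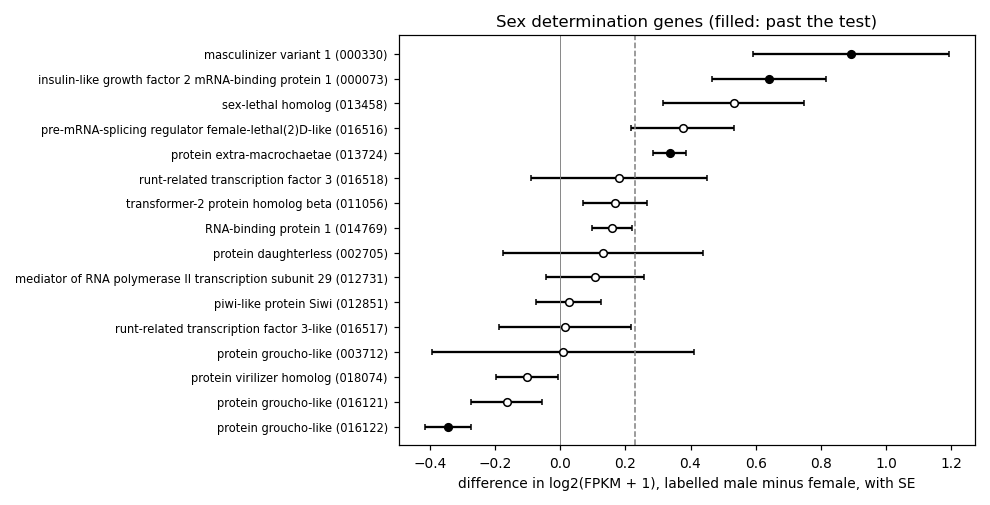
Difference in log2(FPKM + 1) with its SE, labelled male minus labelled female (x axis), for the 16 tested genes of the sex determination cascade (y axis, with the end of each identifier). Filled points passed the test, 3 to the right and 1 to the left of 0, and the dashed line is the median of all genes tested (0.23).

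No other gene of the table was named for a DM domain, so the relatives of doublesex and fruitless listed are BTB zinc finger genes. Of 24 such genes 21 were tested. Of these 7 (33.3%) were called higher under the label male and none under the label female, beside 27.8% and 9.03% over all genes. The list's median was 0.29, beside 0.23 for all genes. After median-of-ratios rescaling 1 call was left. That gene, broad-complex (GWHGABGR003933), an ecdysone-responsive factor, stood at 7.33 ± 0.89 against 13.4 ± 1.06 FPKM (log2 difference 0.79, limma adjusted p = 0.00216) and passed in all 13 settings. Fruitless, with its log2 difference of -0.09, stood below the list's median of 0.29.

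The genes whose levels ran most like those of the 7 were sought by Pearson's r of log2(FPKM + 1) over the 6 libraries, for the 5 genes past the filter. Points within a label share their label, so for a gene that differs between labels a high r mostly restates that difference. For fruitless and GWHGABGR017603, whose libraries overlapped between labels, r also follows the spread among the female-labelled libraries. For GWHGABGR016973 the nearest was a mitochondrial 4-hydroxybenzoate polyprenyltransferase (GWHGABGR009515, r = 0.9999), followed by an uncharacterized gene (GWHGABGR009206, 0.9998) and a zinc finger protein gene (GWHGABGR014661, 0.9996). For the female-named doublesex model the nearest 3 were uncharacterized genes, with GWHGABGR020476 first (r = 0.994). For the male-named GWHGABGR017603 they were an unnamed gene (GWHGABGR011871, r = 0.998), an aminoacyl tRNA synthase complex protein (GWHGABGR004888, 0.996) and spire (GWHGABGR004262, 0.995). For fruitless the nearest was a cytochrome b5-like gene (GWHGABGR008607, r = 0.995). For GWHGABGR016997 a hypothetical protein gene (GWHGABGR019752, r = 0.988) came first.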

How the data were processed

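Antennal mRNA libraries of 3 samples labelled female and 3 labelled male were made with a strand-keeping kit, per the labels' protocols. The authors deposited FPKM per gene. Per the submitters' processing notes, the tools were Trimmomatic, HISAT2, HTSeq and R 3.2.0; their roles are not stated. Genome build and annotation: not given in the sources used here. Coordinates and sequences are not printed. Reads were recovered by a search for library totals and the shortest gene length, from 90 bases up, at which reads were whole within 0.01 (100% of 16458 genes). They come out too low where a gene's reads share a factor, and the tolerance can leave a length slightly short. Genes with a mean of at least 0.5 FPKM were tested by limma 3.58.1 (R 4.3.3, trend option) after taking log2(FPKM + 1), and p-values were adjusted by Benjamini-Hochberg. The limma step was tested on simulated counts with known changes. Exact binomial intervals came from scipy 1.17.1. The members and lists were chosen with earlier results of these data known. List names were matched by pattern, and wrong matches were taken out after values had been seen. Named genes were the 7, all tested genes of the cascade and yolk lists, the 3 largest calls each way of other lists and the 3 nearest by r, of which a part is printed. Marker genes named in other words, and further genes of the same name or family as a named gene, were chosen after their values were seen.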

Additional observations from a re-analysis of the deposited data

How the results depend on the processing

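Over all genes, the number called stayed within 1.5 times the 4274 of the reported fit in every setting run (3324 to 4160), while the split between labels did not (1655 higher under the label male and 2036 under the label female after median-of-ratios rescaling). The 16 calls of the yolk list fell to 10 after that rescaling and ranged from 10 to 15 when 1 library was left out. The 7 calls of the BTB zinc finger list became 4 with no filter on low values, 1 after median-of-ratios rescaling, 3 with quantile normalization and 3 with the replicate block, and ranged from 2 to 5 when 1 library was left out. The 4 calls of the sex determination cascade ranged from 2 to 6 when 1 library was left out. The 3 calls of the testis and sperm list (14 tested genes, all 3 higher under the label male) became 0 by limma with quantile normalization, where 3 genes had an unadjusted p under 0.05, and ranged from 2 to 4 when 1 library was left out. The cause was not tested. Calls of the fat body list stayed between 8 and 9.

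The replicate numbers are only names here: deviations of same-numbered libraries from their label means correlated at 0.00513, 0.00589 and -0.00375 for replicates 1, 2 and 3. With the replicate block 3845 genes were called. The differences of the 5 tested genes described kept their sign in every setting run. That of fruitless ranged from -0.23 to -0.02 when 1 library was left out and was -0.31 after median-of-ratios rescaling and -0.41 with quantile normalization. A pseudocount of 0.1 FPKM raised that of GWHGABGR017605 from 1.40 to 4.09 and that of GWHGABGR017603 from 0.69 to 2.33. At 11 to 29 reads in all, read numbers limit the precision of the doublesex and vitellogenin values.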
